A study of Mus musculus with 11 samples.

Results

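The genes of the immunoproteasome and of peptide loading onto class I molecules of the major histocompatibility complex (MHC) were taken by symbol. They were Psmb8, Psmb9, Psmb10, Psme1, Psme2, Tap1, Tap2, Tapbp and Erap1, 9 of the 46469 symbols in the deposited tables. The rule that picked them used no measured value, but earlier results of these data were known when they were chosen. Poly(A) RNA was sequenced from mouse embryonic fibroblasts of 3 genotypes of the β-actin gene Actb: 4 Actb +/+ libraries (WT), 4 Actb +/- libraries (Het) and 3 Actb -/- libraries (KO 1, KO 3 and KO 4). All cells came from BALB/c embryos at 10.5 days, were grown in high glucose DMEM with 10% fetal bovine serum and were harvested at 70% confluence. A further KO library, set aside by the submitters after quality control, was not analysed here. The series calls the libraries biological replicates, but leaves unsaid how many embryos or cultures stand behind them, so p-values measure the spread between these libraries. How the allele was made and whether the cells had been immortalised are not given in the sources used here.

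Proteasomes cut cytosolic proteins into peptides. In cells exposed to interferon γ, newly made proteasome cores take up the immunosubunits β5i (Psmb8), β1i (Psmb9) and β2i (Psmb10) in place of the constitutive catalytic subunits β5 (Psmb5), β1 (Psmb6) and β2 (Psmb7), and the core can be capped by the PA28 activator, a ring of PA28α (Psme1) and PA28β (Psme2). Peptides are carried into the endoplasmic reticulum by the transporter TAP, a dimer of Tap1 and Tap2, are trimmed there by the aminopeptidase Erap1, and are loaded onto class I molecules that tapasin (Tapbp) holds beside TAP. Fibroblasts express these genes at a basal level that interferon raises.

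Values are FPKM, fragments normalised to transcript length and to the mapped fragments of the library, summed over all loci of a symbol and scaled between libraries. FPKM is a level per transcript length, so levels can be compared between genes, within the limit that some symbols were summed over several loci. Differences were taken after adding 1 FPKM and log2 transformation, so the change of a gene at low FPKM is understated. They were tested with limma over 14941 symbols, with Benjamini-Hochberg (BH) adjustment and a threshold of 0.05, and all 9 genes passed the filter on low values. Because the samples were bulk cultures, fewer expressing cells and less RNA per cell cannot be told apart.

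Actb itself checked the labels: its deposited FPKM was 1074 to 1586 in WT, 839 to 888 in Het and 42.2 to 45.4 in KO. Relative depth was 60.3% to 125% of that of WT 1, lowest in WT 3 and highest in WT 4. Of 10 fibroblast markers, Col1a1, Vim, Fn1, S100a4, Pdgfrb and Col1a2 were present in every library, Thy1 and Pdgfra were under 1 FPKM in every WT library, and Lum and Fap were at or near 0 throughout. The summed level of the fibroblast markers was 1458 to 1920 FPKM in WT, 2303 to 2626 in Het and 3555 to 4211 in KO. Single markers did not all follow that order. In KO against Het, 4 of the 8 tested were higher and 2 lower, Col1a2 and Pdgfra, which were highest in Het. Col1a2 had means of 6.84 FPKM in WT, 193 in Het and 11.5 in KO, and Pdgfra 0.211, 4.33 and 0.959. Of 14 leukocyte markers 13 were in the tables, and their sum was 4.18 to 7.79 FPKM in WT, 3.24 to 5.25 in Het and 3.44 to 6.54 in KO, with Ptprc, Tyrobp and Cd3e at 0 in all 11 libraries. Class II antigen presenting markers summed to 16.5 to 25.3 FPKM in WT, 15.2 to 22.7 in Het and 10.1 to 14.7 in KO, most of it Cd74. Endothelial markers summed to at most 0.715 FPKM in any library. Epithelial markers summed to 30.1 to 75.1 FPKM in WT, 27.7 to 39.6 in Het and 29.3 to 46.8 in KO, most of it Krt19. Of the 3 epithelial markers tested, Krt14 had means of 2.57 FPKM in WT, 0.313 in Het and 0.0348 in KO and fell in KO (-1.66 on the log2 scale, limma with BH, adjusted p = 0.00102) and in Het (-1.32, adjusted p = 0.00303). Krt18 fell in KO (-1.15, adjusted p = 0.000127) and rose in Het (1.46, adjusted p = 1.63e-05), while Krt19 passed neither in KO (-0.09, adjusted p = 0.828) nor in Het (-0.69, adjusted p = 0.0665). Epcam and Cdh1, the defining epithelial markers, were at most 0.635 FPKM in any library. Xist, the RNA of the inactive X chromosome, was at 44.0 to 51.3 FPKM in the 4 Het libraries and at most 0.0583 FPKM in WT and KO, and Ddx3y, Kdm5d, Uty and Eif2s3y of the Y chromosome were at most 0.268 FPKM in every library. Xist and the Het genotype therefore cannot be told apart, and the part of any of these values in the results was not tested.

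Psmb9, Tap1, Psmb8, Tap2 and Tapbp lie in the MHC on chromosome 17 of GRCm38, the genome the authors aligned to. Psmb9 (34182030 to 34187330), Tap1 (34187556 to 34197225), Psmb8 (34198195 to 34201454) and Tap2 (34204085 to 34216321) form one block of adjacent genes, and Tapbp (33919478 to 33929290) lies on the same chromosome outside it. Psme1 (55578494 to 55581527) and Psme2 (55587440 to 55591146) lie close together on chromosome 14, Psmb10 (105935728 to 105938454) lies on chromosome 8 and Erap1 (74639624 to 74691931) on chromosome 13. Psmb9 and Tap1 are divided by only 225 bases, which serve as the upstream region of both. That stretch is shown because Psmb9 and Tap1 share it, the Psmb8 upstream region because Psmb8 had the largest difference of the 9 on the log2(FPKM + 1) scale, and the short Psme1 and Erap1 stretches because they hold the only matches to the interferon-stimulated response element (ISRE) core among the 8 genes with a RefSeq window. All 4 are on the plus strand of GRCm38.p6, from RefSeq. Capitals mark the GC box in the first, the gamma-activated site in the second and the ISRE core, read on the opposite strand, in the other two.
Psmb9-Tap1, between the genes, chr17:34187331-34187555: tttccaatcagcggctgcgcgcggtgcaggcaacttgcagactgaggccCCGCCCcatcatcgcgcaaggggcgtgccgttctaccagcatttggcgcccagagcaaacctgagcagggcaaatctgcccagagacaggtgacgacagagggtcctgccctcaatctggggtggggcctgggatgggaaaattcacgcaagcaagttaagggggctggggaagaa
Psmb8, upstream of the gene, chr17:34197945-34198194: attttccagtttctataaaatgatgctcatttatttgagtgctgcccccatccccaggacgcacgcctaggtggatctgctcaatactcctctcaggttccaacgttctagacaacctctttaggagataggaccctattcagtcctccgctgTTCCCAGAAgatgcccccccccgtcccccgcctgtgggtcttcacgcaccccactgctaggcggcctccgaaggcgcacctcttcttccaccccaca
Psme1, at the start of the gene, chr14:55578493-55578522: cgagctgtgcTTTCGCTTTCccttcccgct
Erap1, at a RefSeq start inside the deposited locus, chr13:74639839-74639868: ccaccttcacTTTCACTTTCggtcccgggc

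RefSeq windows of 250 bases before to 50 after a start were found for 8 of the 9 genes, all but Tap2, and were searched on both strands for 7 patterns chosen after the windows had been looked at. The ISRE core GAAANNGAAA was found in 3.44% of all 32851 windows and in those of Erap1, with its first base 4 bases before the start, and Psme1, at position 10 after the start. The stricter form GAAAGNGAAA, in 1.1% of all windows, matched at those same sites. The gamma-activated site TTCNNNGAA, in 8.3% of windows, was found in Psmb8 with its first base 97 bases before the start. The same site with a spacing of 4, TTCNNNNGAA, in 6.95% of windows, was found in Psmb10 with its first base 67 bases before the start. The NF-κB pattern GGGNNTTTCC, in 1.63% of windows, was in none of the 8, and the looser GGGNNNNNCC, in 50.8%, was in 4. The GC box GGGCGG, in 35.7% of windows, was in 6 of the 8, and its match for Psmb9 and Tap1 is one site in the stretch that both share. These matches describe letters and not binding.

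All 9 genes fell in KO against WT, 5 of them with a further fall at each step from WT through Het to KO, and Psmb8 had the largest difference of the 9 in KO against WT. That rank rests on the pseudocount of 1 FPKM: with 0.01, Psmb9 was at -6.32 and Psmb8 at -5.22. By count, 9 of 9 genes were lower in KO than in WT and 0 higher, where 24% of all 14941 symbols tested were called lower. Their median difference was -1.74, against 0.01 over all symbols. In Het against WT, 8 were lower and 0 higher, where 21.9% of all symbols were called lower, and the median was -0.81 against 0.01. In KO against Het, 6 were lower and 0 higher, where 22.6% of all symbols were called lower, and the median was -1.12 against 0.00. These comparisons share libraries and are not independent of each other. With no scaling between libraries, the share of higher symbols among all called in KO against WT was 37.1% in place of 49.2%, and in KO against Het 36.5% in place of 49.1%. With upper quartile scaling it was 39.9% in place of 49.95% in Het against WT. Under both, all 9 genes were still called lower in KO against WT. The 3 groups did not overlap for most of the genes: KO lay wholly below WT for 9 (23.9% of all symbols), Het wholly below WT for 7 (20%) and KO wholly below Het for 9 (27.1%). Psmb8, Psmb9, Psme1, Psme2 and Tap2 were lower at each step, with all 3 differences past the threshold, a pattern of 2.87% of all symbols.

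All 3 immunosubunits fell in KO, and Psmb8 and Psmb9 fell by steps from WT to Het to KO. Psmb8, the chymotrypsin-like immunosubunit, measured 29.1, 31.7, 25.6 and 37.0 FPKM in WT 1 to 4, 4.43, 4.54, 3.98 and 6.16 in Het 1 to 4, and 0.780, 0.841 and 0.816 in KO 1, 3 and 4. The lowest WT library was thus far above the highest Het library, which was far above every KO library. Mean and SD were 30.8 ± 4.79 FPKM over the 4 WT libraries, 4.78 ± 0.953 over the 4 Het libraries and 0.812 ± 0.0306 over the 3 KO libraries, so the Het mean was 15.5% and the KO mean 2.63% of WT. On the chromosome 17 locus alone, the deposited confidence interval was 0 to 0.726 FPKM in KO 1, 0 to 0.577 in KO 3 and 0 to 0.621 in KO 4. The KO level was thus near the floor, and its small SD does not show how precisely it was read. The log2 difference was -4.12 in KO against WT (SE 0.137, adjusted p = 2.88e-09), -2.46 in Het against WT (SE 0.127, adjusted p = 1.43e-07) and -1.66 in KO against Het (SE 0.137, adjusted p = 3.7e-06).

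Psmb9, the caspase-like position's immunosubunit, measured 9.10, 8.27, 7.09 and 12.2 FPKM in WT, 3.19, 2.24, 3.29 and 2.67 in Het, and 0.797, 0 and 0.167 in KO. The groups did not overlap, and KO 3 was listed at 0. On the chromosome 17 locus alone, the deposited confidence interval was 0.873 to 3.28 FPKM in WT 1 and 0 to 0.931 in KO 1, so single libraries were read with wide error at this level. The log2 difference was -2.97 in KO against WT (SE 0.212, adjusted p = 1.02e-06), -1.39 in Het against WT (SE 0.196, adjusted p = 0.000211) and -1.58 in KO against Het (SE 0.212, adjusted p = 0.000127). With a pseudocount of 0.01 FPKM in place of 1, the Het difference was -1.67 and no longer passed (adjusted p = 0.206), and the KO difference was -6.32 (adjusted p = 0.000695).

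Psmb10, the trypsin-like position's immunosubunit, measured 18.3, 33.0, 22.8 and 49.5 FPKM in WT, 16.4, 15.3, 17.0 and 18.6 in Het, and 6.26, 12.5 and 10.7 in KO. WT varied 2.71-fold from its lowest to its highest library, and its lowest lay inside the Het range, while KO lay below both. Psmb10 was lower in KO than in WT by a log2 difference of -1.51 (SE 0.299, limma with BH, adjusted p = 0.0017). The Het difference from WT of -0.74 was at the edge of the threshold (adjusted p = 0.0492) and was -0.49 without WT 4 (adjusted p = 0.093). KO against Het was -0.77 and did not pass (adjusted p = 0.0585), although the 2 groups did not overlap.

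**Figure D1:**
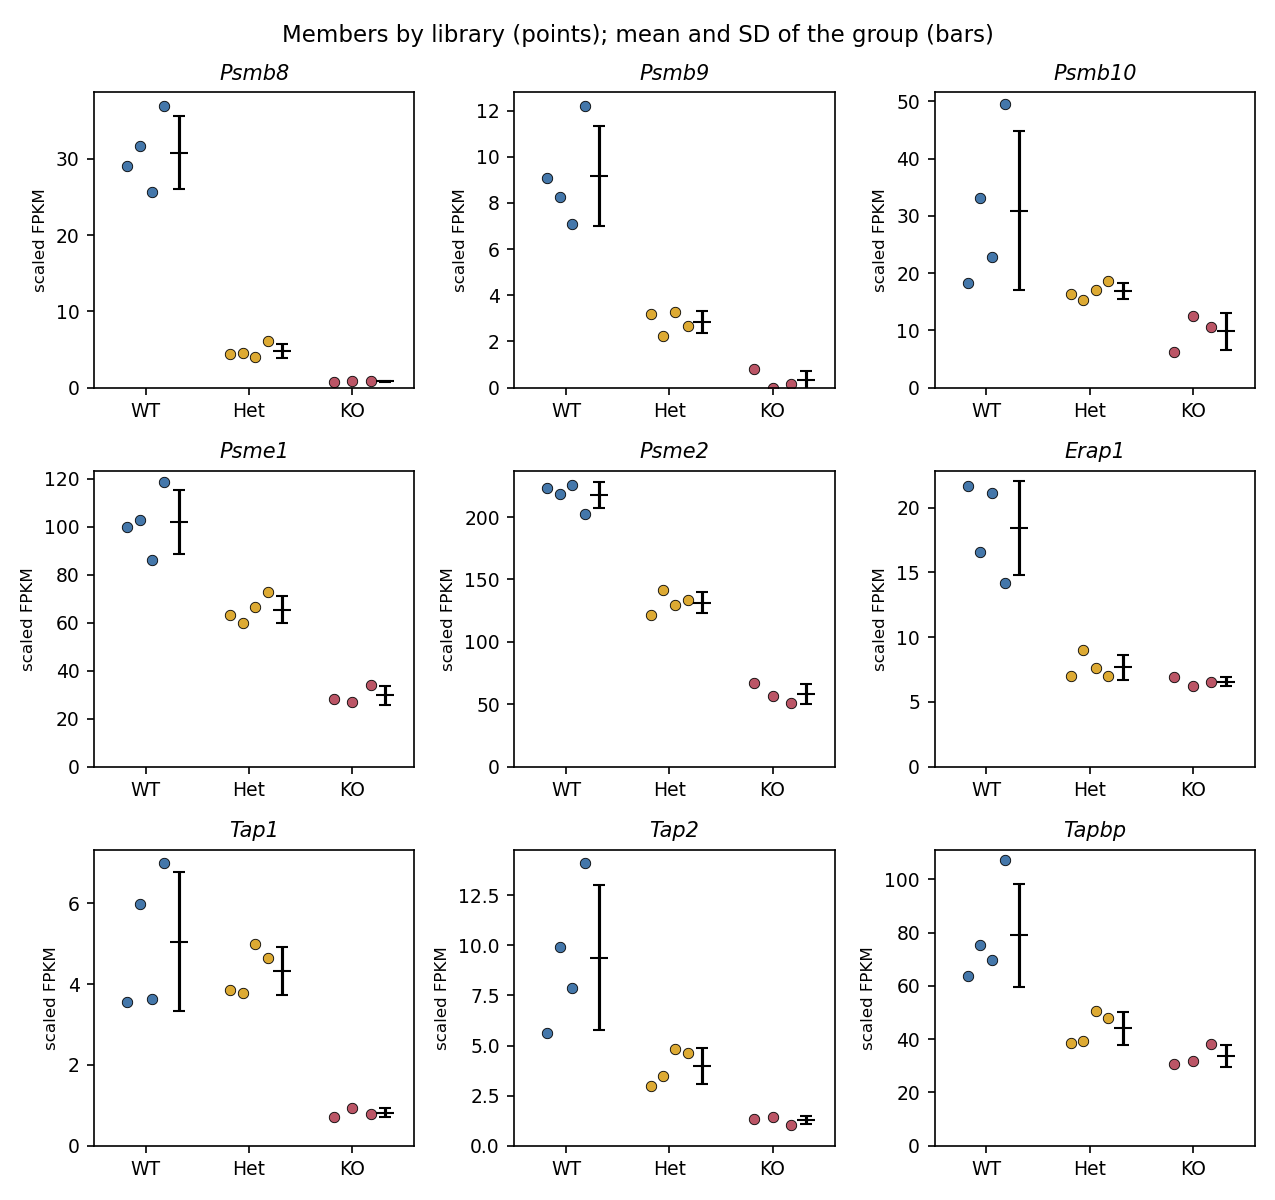
Scaled FPKM of the 9 genes in each library (points, vertical axes starting at 0, 1 panel per gene), with the mean and SD of the group beside them; the bar of Psmb9 in KO is clipped at 0. In every panel the KO points lie below all Het and WT points, and Tap1 and Psmb10 are the panels where Het and WT points overlap.

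Each immunosubunit was set against the constitutive subunit whose place it takes, as its share of the FPKM of the pair. The height of the Psmb8 and Psmb9 shares rests on the sum over several loci. On chromosome 17 alone, the WT mean was 9.01 FPKM in place of 30.8 for Psmb8 and 1.98 in place of 9.17 for Psmb9. Psmb8 made up 30.7%, 27.6%, 25.2% and 27.6% of the Psmb8 and Psmb5 pair in WT 1 to 4, 5.65%, 6.16%, 5.22% and 6.68% in Het, and 1.92%, 1.91% and 1.61% in KO. The 3 genotypes were thus apart, although Psmb5 itself also fell in KO, from a mean of 80.5 to 44.3 FPKM (log2 difference -0.84, limma with BH, adjusted p = 0.000286), and measured 75.3 in Het (log2 difference -0.08, adjusted p = 0.597). Psmb9 made up 2.78% to 4.34% of its pair with Psmb6 in WT, 1.16% to 1.72% in Het and 0% to 0.477% in KO, again without overlap. Psmb10 made up 4.45% to 14.3% of its pair with Psmb7 in WT, 5.05% to 6.2% in Het and 2.22% to 4.76% in KO, where KO overlapped WT and Het lay within the WT range.

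The log2 ratio of the pair, with 0.1 FPKM added to both genes, was compared between groups by exact two-sided permutation tests, 9 in all. For Psmb8 it differed by -2.59 in Het against WT and for Psmb9 by -1.31, each with exact p = 0.0286, the smallest that 4 against 4 libraries allow, and BH-adjusted p = 0.0735. In KO against WT the ratio differed by -4.22 for Psmb8 and -4.58 for Psmb9, with exact p = 0.0571 for both, the smallest that 3 against 4 libraries allow. The Psmb9 value rests on KO 3, listed at 0, and on the loci summed: it was -3.82 without KO 3, -5.47 without KO 1 and -3.25 on chromosome 17 alone. For Psmb10 the exact p was 0.114 in KO against WT (difference -1.19) and 0.371 in Het against WT (difference -0.49). None of the 9 permutation tests passed 0.05 after adjustment. With groups this small none could have passed after it, and no test with KO could have passed before it. The tests therefore do not show equal ratios.

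**Figure D2:**
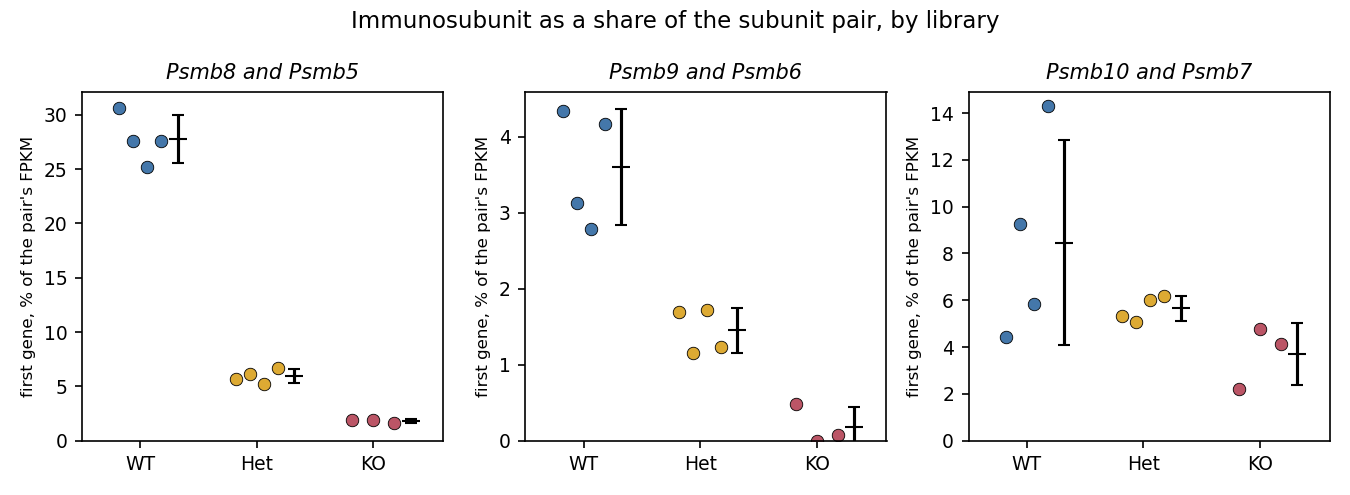
Share of the FPKM of each subunit pair that comes from the immunosubunit, in percent, by library (points) with the mean and SD of the group beside them. Psmb8 is at 25.2% to 30.7% in WT, 5.22% to 6.68% in Het and 1.61% to 1.92% in KO, and the third panel, Psmb10 with Psmb7, is the one with overlap between WT and the other groups.

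Both subunits of PA28 fell by steps from WT through Het to KO. Psme1 measured 100.0, 102.7, 86.3 and 118.7 FPKM in WT, 63.2, 59.8, 66.4 and 72.7 in Het, and 28.1, 26.8 and 34.2 in KO. Psme2, the most abundant of the 9, measured 222.9, 218.4, 226.0 and 202.3 FPKM in WT, 121.1, 141.6, 129.6 and 133.7 in Het, and 66.8, 56.7 and 50.7 in KO. For both genes the 3 groups were fully apart. The Het mean was 64.3% of WT for Psme1 and 60.5% for Psme2, and the KO mean was 29.2% and 26.7% of WT. Psme1 differed by -1.74 in KO against WT (SE 0.114, limma with BH, adjusted p = 5.19e-07) and by -0.62 in Het against WT (SE 0.106, adjusted p = 0.000743). Psme2 differed by -1.90 in KO against WT (SE 0.0897, adjusted p = 4.53e-08) and by -0.72 in Het against WT (SE 0.083, adjusted p = 4.87e-05). KO against Het was -1.12 for Psme1 and -1.17 for Psme2, and both passed. The near-copy Psme2b was at 21 to 22.7 FPKM in WT, 12.3 to 14.9 in Het and 5.82 to 7.21 in KO, and reads may have been divided between it and Psme2, which leaves the level of Psme2 uncertain. Of the other activators, Psme3 (PA28γ, of the nucleus) measured 69.8 FPKM in WT and 66.5 in KO (log2 difference -0.07, adjusted p = 0.293), and Psme4 (PA200) fell from 42.7 to 30.7 FPKM (log2 difference -0.46, adjusted p = 0.00283).

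Both TAP subunits fell in KO, and Tap2 also fell in Het. Tap1 measured 3.57, 6.0, 3.64 and 7.01 FPKM in WT, 3.86, 3.77, 4.99 and 4.65 in Het, and 0.717, 0.932 and 0.791 in KO. The Het libraries lay inside the WT range and all KO libraries lay far below both. The Het difference from WT was -0.15 (95% interval -0.54 to 0.24, adjusted p = 0.533), while KO differed from WT by -1.70 (SE 0.191, adjusted p = 3.36e-05) and from Het by -1.55 (SE 0.191, adjusted p = 7.08e-05). On the chromosome 17 locus alone the sign of the Het difference turned, to 0.01 (adjusted p = 0.974), and without WT 2 and WT 4 it was 0.19 (adjusted p = 0.185).

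Tap2 measured 5.64, 9.92, 7.89 and 14.1 FPKM in WT, 2.99, 3.49, 4.83 and 4.61 in Het, and 1.32, 1.43 and 1.04 in KO. Its groups did not overlap, although WT varied 2.5-fold. It differed by -2.14 in KO against WT (SE 0.239, limma with BH, adjusted p = 3.19e-05), by -1.01 in Het against WT (SE 0.222, adjusted p = 0.00361) and by -1.12 in KO against Het (SE 0.239, adjusted p = 0.00283). Whether the Het differences of Tap1 and Tap2 differ from each other was not tested.

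Tapbp, the tapasin gene, measured 63.8, 75.5, 69.6 and 107.2 FPKM in WT, 38.4, 39.4, 50.7 and 47.8 in Het, and 30.6, 32 and 38.3 in KO. By the means, most of the difference from WT was already present in Het, and the KO and Het ranges nearly met. Het did not pass against the midpoint of KO and WT, however (-0.22, limma with BH, adjusted p = 0.233). Against WT, Tapbp differed by -1.19 in KO (SE 0.168, limma with BH, adjusted p = 0.00017) and by -0.81 in Het (SE 0.155, adjusted p = 0.00165), and KO against Het was -0.38 and did not pass (adjusted p = 0.0909).

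Erap1, the trimming peptidase, measured 21.7, 16.5, 21.2 and 14.2 FPKM in WT, 6.99, 9.0, 7.63 and 7.02 in Het, and 6.89, 6.24 and 6.55 in KO. Its Het and KO libraries were close to each other and all were below WT. Against WT, Erap1 differed by -1.34 in KO (SE 0.139, limma with BH, adjusted p = 1.76e-05) and by -1.15 in Het (SE 0.129, adjusted p = 3.91e-05). KO against Het was -0.19 (95% interval -0.50 to 0.12, adjusted p = 0.296). Het thus had 41.6% and KO 35.6% of the WT level of Erap1.

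**Figure D3:**
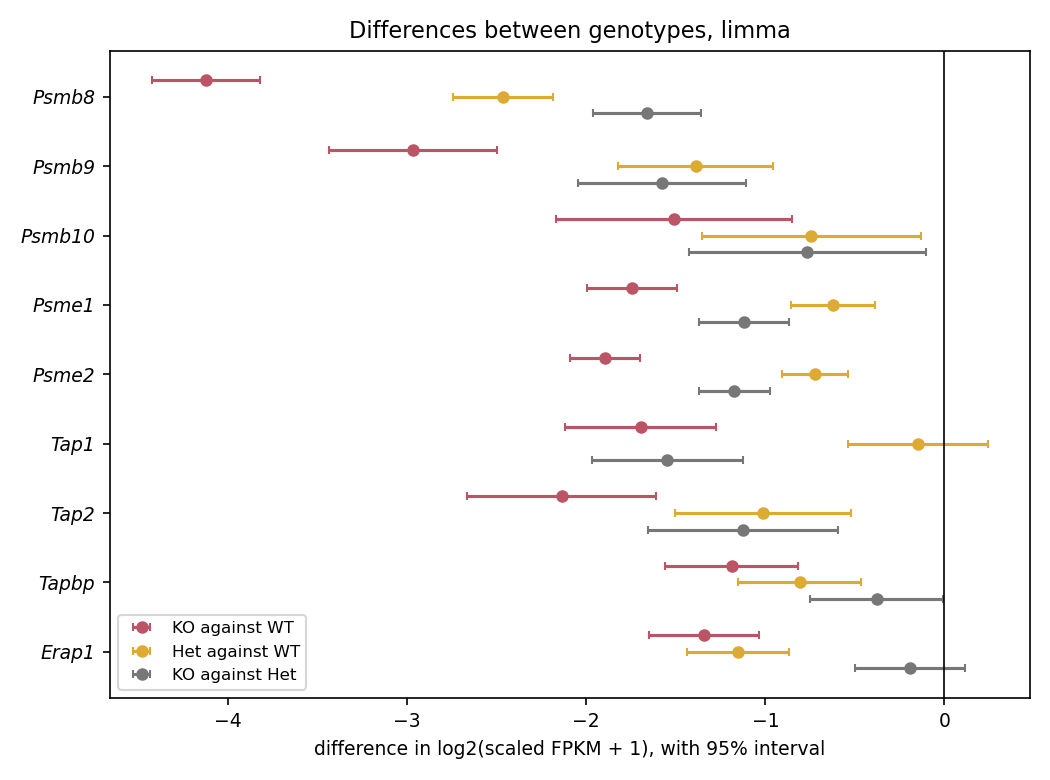
Difference between genotypes in log2(scaled FPKM + 1) for each gene (points, from limma) with its 95% interval (bars); the vertical line marks 0. KO against WT lies between -4.12 for Psmb8 and -1.19 for Tapbp, and the interval reaches past 0 for Tap1 in Het against WT and for Erap1 in KO against Het.

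The position of Het between the other genotypes was read for each gene by limma with BH, and whether it differs between genes was not tested. Against the midpoint of KO and WT on the log2 scale, Het was lower for 2 genes, Psmb8 (-0.40, adjusted p = 0.0141) and Erap1 (-0.48, adjusted p = 0.00585), where 22.6% of all symbols were lower. It was higher for 2, Tap1 (0.70, adjusted p = 0.00424) and Psme2 (0.23, adjusted p = 0.0289), where 21.6% were higher. Both counts were near the shares over all symbols. The difference from the midpoint was 0.25 for Psme1 (adjusted p = 0.053) and -0.22 for Tapbp (adjusted p = 0.233), and lay between 0.01 and 0.10 for Psmb9, Psmb10 and Tap2. The Psmb8 value depended on the pseudocount, since at 0.1 FPKM it was -0.13 (adjusted p = 0.416). It also missed the threshold without Het 3, and the Psme2 call was lost without any one of Het 2, Het 3, Het 4, KO 3 or KO 4.

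The order of levels changed between genotypes. In WT it ran Psme2, Psme1, Tapbp, Psmb10, Psmb8, Erap1, Tap2, Psmb9 and Tap1, and the library ranges of Psme1 and Tapbp, of Psmb10 and Psmb8, and of Tap2 and Psmb9 overlapped. In Het, Erap1 stood above Psmb8, and Psmb8, Tap1, Tap2 and Psmb9 followed, each overlapping the next. In KO, Psme2 was still highest, Tapbp (33.6 ± 4.08, SD, n = 3) and Psme1 (29.7 ± 3.92, SD, n = 3) overlapped, and Tap1, Psmb8 and Psmb9 came last, all under 1 FPKM in every KO library. Psmb8, which in WT ranked above Erap1, Tap2, Psmb9 and Tap1, was thus among the lowest in KO. These orders rest on sums over several loci for Psmb8, Psmb9, Tap1, Tap2 and Tapbp, while the other genes have a single locus. On chromosome 17 alone, the WT mean of Psmb8 was 9.01 FPKM, below Erap1 at 18.4. That of Tapbp was 23.0, below Psmb10 at 30.9.

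Within WT, the highest library was between 1.12 times (Psme2) and 2.71 times (Psmb10) the lowest. WT 4 was the highest of the WT libraries for 7 of the 9 genes (33.1% of all symbols tested) and the lowest for the other two, Psme2 and Erap1 (38.2%). WT 1 was the lowest for Psmb10, Tap1, Tap2 and Tapbp (32.9%). WT 4 also had the greatest relative depth, 125% of that of WT 1, and the part of depth in this was not tested. The KO difference of all 9 genes passed without WT 2 and WT 4.

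Among class I transcription regulators, Irf1 had the same order of genotypes as the 9 genes, and so did others of the list. Of these, Rfx5 had means of 6.50 FPKM in WT, 5.24 in Het and 4.06 in KO. Rfx5 differed from WT by -0.57 in KO (limma with BH, adjusted p = 0.000434) and by -0.26 in Het (adjusted p = 0.0272). Irf1, an interferon-induced activator of many of these genes, measured 73.3, 69.3, 75.6 and 71.4 FPKM in WT, 45.2, 44.9, 44.7 and 41.8 in Het, and 27.6, 25.5 and 24.1 in KO. The groups were far apart, with differences from WT of -1.46 in KO (SE 0.059, limma with BH, adjusted p = 1.31e-08) and -0.70 in Het (SE 0.0546, adjusted p = 2.73e-06). Nlrc5, the class I transactivator, measured 1.19, 1.44, 1.20 and 1.31 FPKM in WT, 0.948, 0.7, 0.912 and 0.574 in Het, and 0.524, 0.486 and 0.479 in KO. Its groups did not overlap either, with differences from WT of -0.61 in KO (adjusted p = 0.0003) and -0.36 in Het (adjusted p = 0.00592). Irf9, which carries interferon signals to the nucleus, did not follow that order. It measured 7.18 to 8.96 FPKM in WT, 8.84 to 10.6 in Het and 2.34 to 2.86 in KO, rising in Het (0.24, adjusted p = 0.0402) and falling in KO (-1.31, adjusted p = 9.97e-07). Of the 14 tested genes of this list that are reported here, 5 were lower and 0 higher in KO, and 5 lower and 4 higher in Het, Stat2 at 0.95 among them. Their median was -0.29 in KO and -0.06 in Het, beside 0.01 over all symbols. Of all symbols, 24% were called lower in KO and 21.9% in Het, and nearly as many were called higher.

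**Figure D4:**
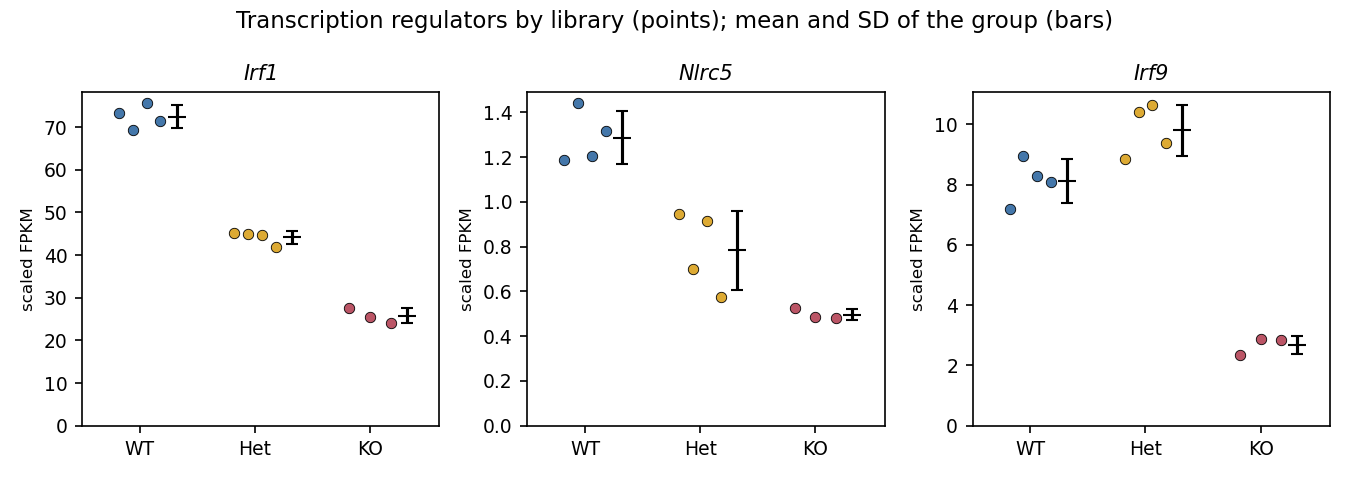
Scaled FPKM of 3 transcription regulators in each library (points, vertical axes starting at 0), with the mean and SD of the group beside them. Irf1 and Nlrc5 descend from WT to Het to KO, whereas Irf9 is at 8.84 to 10.6 FPKM in Het and 7.18 to 8.96 in WT.

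The rest of the pathway was read from lists of related genes. For comparison, 24% of all symbols were called lower in KO and 21.9% in Het, with nearly as many higher in each. The 20S core without immunosubunits had 10 of 14 genes lower and 0 higher in KO (median -0.42), and 9 lower and 0 higher in Het (median -0.31). Psmb6 differed by -0.40 and Psmb7 by -0.41 in KO, and both passed. The 19S regulatory particle had 10 of 23 genes lower and 1 higher in KO (median -0.17, with Psmc6 at -1.08 and Psmd6 at -1.07) and 9 lower in Het (median -0.11). The other activators and core assembly factors had 3 of 8 lower in KO, with Psmf1, a proteasome inhibitor, at -0.67. The lowest of the 37 subunits of the 20S and 19S lists, Psmc6, was near the highest of the 9 genes, Tapbp at -1.19. Their difference was not tested, and Tapbp was at -1.04 without WT 4, and at -0.98 without WT 2 and WT 4, where Psmb10 was at -1.04.

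On the loading side, 5 of 7 partners were lower and 0 higher in KO (median -0.32), where 24% of all symbols were called lower and nearly as many higher. The class I heavy chain genes fell most: H2-D1 measured 78.8 to 102.7 FPKM in WT, 42.5 to 46.0 in Het and 4.44 to 5.17 in KO (log2 difference -3.98 in KO), and H2-K1 measured 92.6 to 120.5, 36.6 to 44.3 and 24.4 to 25.9 (-2.01 in KO). Both have near-identical relatives, so reads may have been divided among them. The light chain gene B2m measured 345 FPKM in WT, 398 in Het and 366 in KO (log2 difference from WT 0.09 in KO, which did not pass at an adjusted p of 0.383, and 0.21 in Het, which did at 0.0339). The tapasin relative Tapbpl fell (-0.62, adjusted p = 0.000997), as did the chaperones Calr (-0.32) and Canx (-0.24), while Pdia3, tapasin's disulfide partner, was at -0.01 (adjusted p = 0.953). Of 7 cytosolic and other peptidases, 0 were lower and 2 higher in KO, Lnpep (IRAP, a relative of Erap1) at 0.41 and Lap3 at 0.36. Lower levels thus were not a feature of each gene that trims or loads peptides.

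Interferons themselves were at 0 in all 11 libraries for 9 of 10 genes, and Ifne was at most 0.344 FPKM. Interferon-inducible genes had 11 of 14 lower and 0 higher in KO (median -1.19, with the chemokine Cxcl10 at -3.33 and Ifi27 at -2.44). In Het, 2 were lower and 6 higher (median 0.13, with Ifit1 at 3.62 and Ifit3 at 1.61), where the 9 genes had 8 lower and 0 higher. Receptors and kinases of the pathway had 2 of 9 lower and 1 higher in KO (median -0.01) and 3 lower and 5 higher in Het (median 0.30). The medians over all symbols were 0.01 in both comparisons. Of all symbols, 24% were called lower in KO and 21.9% in Het, with nearly as many higher in each.

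**Figure D5:**
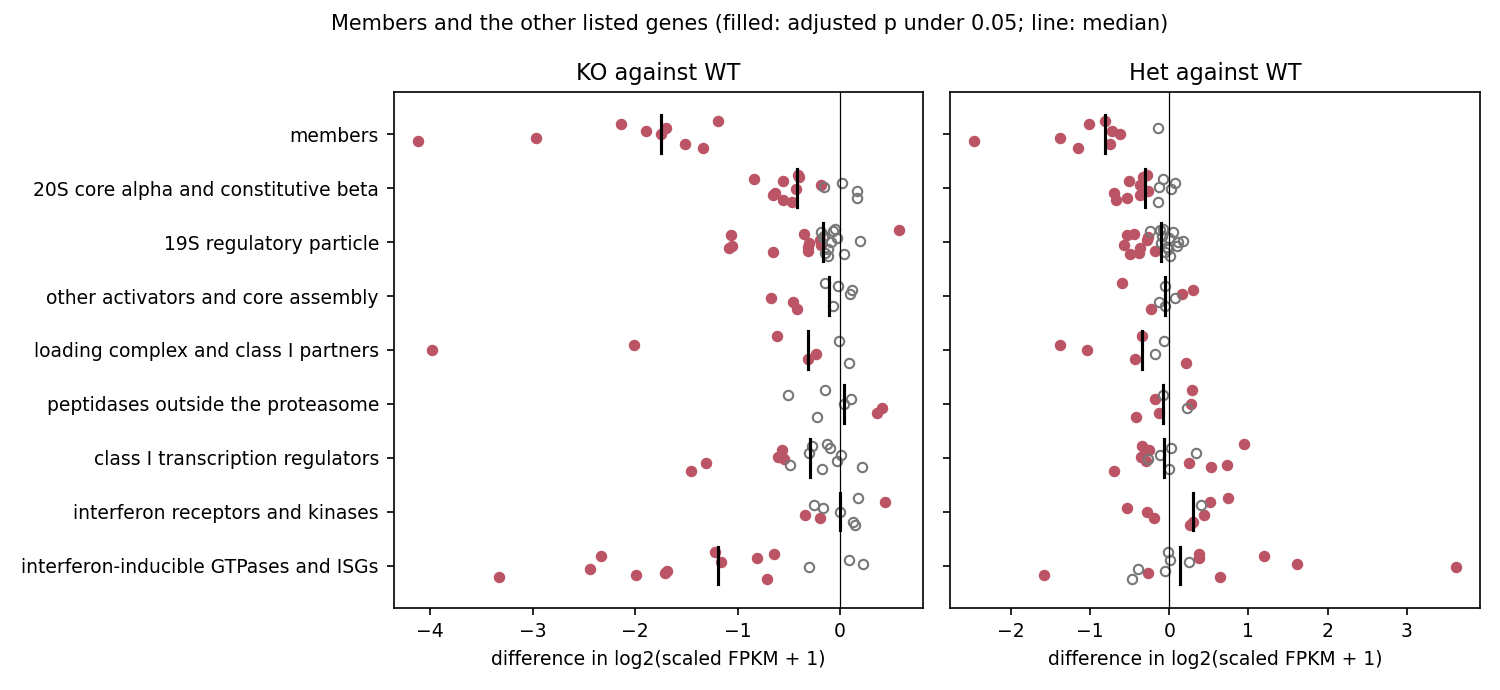
Difference in log2(scaled FPKM + 1) of each tested gene of the 9 genes (top row) and of 8 related lists, KO against WT on the left and Het against WT on the right; filled points passed an adjusted p of 0.05 and bars mark list medians. The 9 genes lie between -4.12 and -1.19 on the left, and interferon-inducible genes lie on both sides of 0 on the right.

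Neighbours on the chromosome were read to see how far the lower levels extended. The block of Psmb9, Tap1, Psmb8 and Tap2 is flanked among tested genes by H2-DMa, which measured 2.41 FPKM in WT and 2.12 in KO (log2 difference -0.13, limma with BH, adjusted p = 0.449), and by H2-Ab1, which measured 1.72 in WT and 2.53 in KO (0.44, adjusted p = 0.223). The flanks lie 42928 and 46905 bases from the block, and H2-Ab1 fell in Het (-1.01, adjusted p = 0.00869). Emc9, between Psme1 and Psme2, measured 4.05 FPKM in WT, 5.59 in Het and 2.70 in KO, and neither difference passed, although its annotation overlaps Psme1 by 9 bases and reads there cannot be assigned without doubt. Tapbp likewise overlaps the predicted gene Gm19412. Of 11 nearest tested neighbours that are not among the 9 genes, 4 were lower and 0 higher in KO (median -0.28), where 24% of all symbols were called lower, and 2 were lower and 0 higher in Het (median -0.16), where 21.9% were. Dcaf11, beside Psme1, differed most at -1.13 (adjusted p = 2.39e-07). Cast, beside Erap1, was at -0.47 and Pskh1, beside Psmb10, at -0.35.

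Genes of like profile were ranked by the root mean square difference over the 11 libraries between log2(FPKM + 1) profiles, each taken relative to its WT mean, among 11281 named symbols. Nearest to the mean profile of the 9 genes were the class I-like gene H2-Q4 (0.13), Coro2a (0.19), Abat (0.22), Nfkbie (0.23) and Als2cl (0.23). Of the other genes looked up, H2-K1 ranked 7 and Irf1 55. Further off were Psmb5 (728), Irf9 (776), Nlrc5 (808), Tapbpl (833), Psmb6 (1413), Psmb7 (1669), H2-D1 (1781) and B2m (7027). Only 1 of those 5 nearest genes was still among the nearest 5 with a pseudocount of 0.1 FPKM, so the ranking rests on the scale. Among the 9 genes, Psme1 and Psme2 were each other's nearest (0.24), as were Psmb10 and Tapbp (0.31). Psmb8 had the largest distance to its nearest fellow, 0.93 to Psmb9. Each of the 9 genes had other symbols nearer to it than its nearest fellow, from 7 for Psmb8 to 158 for Erap1.

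Finally, the levels of the MHC genes depend on several loci per symbol. Psmb8, Psmb9, Tap1, Tap2 and Tapbp each have 4 loci in the tables, the chromosome 17 locus and 3 on other sequences of the assembly, 1 of which was within 1% of the chromosome 17 value in all libraries. Between 65.0% (Psmb8 in KO 1) and 80.3% (Tap2 in KO 4) of the FPKM of a gene lay outside chromosome 17. None of 15 comparisons of that share between genotypes passed after BH adjustment, by exact two-sided permutation tests with a lowest adjusted p of 0.107. With groups this small no comparison could have passed after that adjustment, so this does not show equal shares. At an unadjusted exact p under 0.05 there were 4, all in Het against WT at p = 0.0286 with n = 4 in each group, where the share differed by -4.64 percentage points for Psmb9, -3.73 for Tap1, -5.48 for Tap2 and -0.874 for Tapbp. On chromosome 17 alone, KO against WT was -3.00 for Psmb8, -1.45 for Psmb9, -0.88 for Tap1, -1.17 for Tap2 and -1.15 for Tapbp, and each passed by limma (largest adjusted p 0.000298). A single locus has a lower FPKM than the sum, and the added 1 FPKM then shrinks the log2 difference more.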

How the data were processed

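Gene expression was measured by stranded poly(A) RNA-seq in 11 libraries. The authors deposited FPKM per locus with a confidence interval, which per the submitters' processing notes came from TopHat2 2.1.0 and Cufflinks 2.2.1 on GRCm38.p4. Cuffdiff is named there too, and whether counting used strand is not given in the sources used here. The files hold no counts, so read depth is unknown and only its ratio between libraries was estimated, from interval widths of 12397 low loci. FPKM of loci sharing a symbol were summed, scaled by the median of ratios over 13611 genes and kept where at least 1 in at least 3 libraries, giving 14941 symbols. The log2 of FPKM plus 1 entered limma 3.58.1 (R 4.3.3), with 1 mean per genotype over all libraries, a variance trend and BH adjustment at 0.05. In simulated libraries of 14941 genes for KO against WT, 87% of genes set to a 2-fold and 98% of those set to a 4-fold change were called, with 5 false calls. Only a small set of genes above a minimum level was changed there, all downward, with independent noise and no scaling step. In the data 7061 symbols were called in KO against WT, so these figures are not error rates for the data. Subunit ratios and locus shares were tested by exact permutation in scipy 1.17.1. The ratios had 0.1 FPKM added to both genes because Psmb9 is listed at 0 in 1 library, a step the planned test did not have.

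The 9 genes, the related lists and the markers were chosen with earlier results of these data known. Besides the 9 genes, constitutive partners, other activators, loading factors, regulators, up to the 2 largest changes past the threshold per list in a comparison, the 5 most similar genes and nearest neighbours are named. One regulator that this rule names is not reported here, for a reason unrelated to its values, and its list's counts and medians leave it out. Cd74, Krt19, further marker genes and the regulator Rfx5 were named after their values were seen. Alternatives varied the pseudocount, filter, scaling, loci, variance trend, replicate block and libraries.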

Additional observations from a re-analysis of the deposited data

How the results depend on the processing

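In KO against WT, the 9 genes kept their sign and passed in all 197 results, counted as each gene under each of up to 22 refits. Each refit changed 1 choice or left out libraries. The refits share most libraries and are not independent. Over the 4 comparisons, 724 of 779 such results kept sign and side of the threshold. Those that changed were mainly Psmb10 and the midpoint comparison. In Het against WT, Psmb10 lost its call in 14 refits (adjusted p up to 0.309, at -0.28 without WT 2 and WT 4 together, a choice made after seeing the data), Psmb9 lost it with a pseudocount of 0.01, and Tap1 turned to 0.0065 on chromosome 17 alone and 0.19 without WT 2 and WT 4. In KO against Het, 13 such results of Psmb10 and Tapbp passed in all.

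Against the midpoint, 1 gene in place of 2 was lower with a pseudocount of 0.1 or 0.01, and 1 in place of 2 was higher with no filter, a filter of 5 FPKM or upper quartile scaling. Leaving out single replicates gave 1 to 2 lower and 1 to 3 higher. Values not past the threshold turned sign for Psmb9 (-0.035 on chromosome 17 alone), Psmb10 (-0.031 with upper quartile scaling, and -0.12 to 0.14 over left-out replicates) and Tap2 (-0.041 to 0.16 over left-out replicates). With a pseudocount of 0.1, 1 of the 5 genes of most similar profile was shared. The cause of these changes was not tested, and fits without a replicate also have fewer libraries.

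Nothing in the labels says that replicate numbers mark a shared source. Deviations from the group means correlated between -0.10 and 0.35 for same-numbered libraries and between -0.40 and 0.18 for others. The 4 highest values joined same-numbered libraries, numbered 1 or 4, but not every library correlated best with its own number, so the numbers were not taken as pairs. With the replicate number as a block, 9, 8 and 8 genes were lower in KO against WT, Het against WT and KO against Het, and 2 were lower and 3 higher against the midpoint. The calls added by the block were Psmb10 (-0.75) and Tapbp (-0.41) in KO against Het and Psme1 (0.26) against the midpoint. No call was lost.

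Leaving out KO 1 or KO 4 left 1 defined locus share for Psmb9 in KO, so its share was not compared there. The files give no counts, so what depth limits was not computed.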
